A study of Mus musculus with 16 samples.

Results

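Ms4a4c, Ms4a6b, Ms4a6c, Ms4a6d and Ms4a7 are 5 mouse genes for membrane proteins of the MS4A family, and they were followed in dendritic cells grown from bone marrow and exposed to Lactobacillus acidophilus NCFM, a gut bacterium sold as a probiotic. They were taken as every probe set whose symbol in the array's probe table is one of the 5 names, which gave 11 of 45101 probe sets and 5 of 18193 genes. The 5 were picked with their difference between NCFM and control cells in these arrays already known, so those differences are given as a description and carry no test. The cells came from wild-type C57BL/6 mice and had grown for 8 days with GM-CSF at 15 ng/ml, and the non-adherent immature cells were then put in fresh medium with GM-CSF at 10 ng/ml. NCFM was added at 10 µg/ml for 4, 10 or 18 h, with 3 arrays at each time. Control cells stayed in the same medium without bacteria and were sampled at the same times, with 3 arrays at 4 h and 2 each at 10 and 18 h. Mouse ages and sexes are not given by the labels, which also do not say whether replicates are separate animals or cultures, so tests measure only the spread between these samples.

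MS4A proteins cross the cell membrane several times and keep both ends inside the cell, and many sit beside signalling receptors in the membrane. The best known members are Ms4a1, which encodes CD20 of B cells, and Ms4a2, the beta chain of the high-affinity IgE receptor of mast cells. Myeloid cells carry several other members, among them MS4A4A and MS4A7 of human macrophages, and in the mouse Ms4a6d has been described as a macrophage protein that binds the complement receptor Vsig4. In mouse T cells Ms4a4b has been linked to the costimulatory receptor encoded by Tnfrsf18.

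All 5 genes lie in 1 cluster of 21 Ms4a genes on chromosome 19 in the RefSeq annotation of GRCm38.p6. Along the chromosome the order in their neighbourhood is Ms4a7, Ms4a4a, Ms4a4c, Ms4a4b, Ms4a6c, Ms4a6b, Ms4a4d and Ms4a6d. RefSeq promoter windows, from 250 bases before to 50 bases after the annotated start, matched 4 of the 5 genes, not Ms4a6d, and are shown because 2 pairs of paralogs in them, Ms4a4c with Ms4a4b and Ms4a6b with Ms4a6c, are described together in the values that follow. Capitals mark matches to the motifs named after the sequences, and every window reads from 5′ to 3′ on the strand of the gene.
Ms4a4c, chr19:11407411-11407710, plus strand: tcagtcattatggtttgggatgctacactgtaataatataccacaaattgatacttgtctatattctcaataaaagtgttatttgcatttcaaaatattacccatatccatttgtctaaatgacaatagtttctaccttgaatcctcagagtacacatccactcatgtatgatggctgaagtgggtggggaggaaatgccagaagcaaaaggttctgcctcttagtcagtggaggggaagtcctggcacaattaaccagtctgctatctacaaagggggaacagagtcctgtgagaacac
Ms4a4b, chr19:11443308-11443607, plus strand: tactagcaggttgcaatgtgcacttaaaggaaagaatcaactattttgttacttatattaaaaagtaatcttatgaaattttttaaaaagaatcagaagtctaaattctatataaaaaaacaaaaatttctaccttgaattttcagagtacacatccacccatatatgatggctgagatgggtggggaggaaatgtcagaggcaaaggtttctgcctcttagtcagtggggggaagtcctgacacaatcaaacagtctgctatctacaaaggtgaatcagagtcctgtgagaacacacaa
Ms4a6b, chr19:11518309-11518608, plus strand: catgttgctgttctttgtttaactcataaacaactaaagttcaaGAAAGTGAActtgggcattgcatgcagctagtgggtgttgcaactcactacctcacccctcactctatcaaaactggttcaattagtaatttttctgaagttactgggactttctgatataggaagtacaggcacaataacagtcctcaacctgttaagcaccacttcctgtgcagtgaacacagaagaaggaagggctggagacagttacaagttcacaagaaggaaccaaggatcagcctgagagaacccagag
Ms4a6c, chr19:11469118-11469417, plus strand: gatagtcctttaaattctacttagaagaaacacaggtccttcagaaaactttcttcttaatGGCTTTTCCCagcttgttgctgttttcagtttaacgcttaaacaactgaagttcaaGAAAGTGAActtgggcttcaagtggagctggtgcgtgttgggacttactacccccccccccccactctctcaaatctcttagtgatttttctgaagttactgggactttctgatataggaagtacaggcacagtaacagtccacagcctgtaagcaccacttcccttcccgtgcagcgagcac
Ms4a7, chr19:11336097-11336396, minus strand: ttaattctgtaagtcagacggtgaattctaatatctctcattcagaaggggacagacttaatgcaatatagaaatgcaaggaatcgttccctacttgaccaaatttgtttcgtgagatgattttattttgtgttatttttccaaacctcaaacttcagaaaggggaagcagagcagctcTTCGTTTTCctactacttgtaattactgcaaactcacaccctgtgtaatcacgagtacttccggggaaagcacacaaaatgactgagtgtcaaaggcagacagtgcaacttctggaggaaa

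The windows of Ms4a4c and Ms4a4b were identical at 72.9% of aligned columns, and those of Ms4a6b and Ms4a6c at 51.2%. All other pairs of genes, with a second Ms4a7 window included, had 44.5% to 50.5%. Over whole windows Ms4a6b and Ms4a6c were thus hardly more alike than other pairs. The longest run of bases shared by Ms4a6b and Ms4a6c was 48 bases long, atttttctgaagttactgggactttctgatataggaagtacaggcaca, and began at -118 in Ms4a6b and at -49 in Ms4a6c counted from the annotated start as 0. Ms4a4c and Ms4a4b shared a run of 20 bases, ttctgcctcttagtcagtgg, which began at -38 and -41. Motifs were searched on both strands. None of the windows shown held the STAT motif TTCNNNGAA, which is in 8.3% of all 32851 windows. A shorter interferon regulatory factor motif, GAAANNGAA, was added after the windows had been read and is in 8.56% of all windows. The core of the interferon response element, the same letters followed by a further A, is in 3.44% of all windows and in none of those shown. Nor was the ETS-IRF composite, GGAANNGAA with a further A, found in them, which is in 2.72% of all windows. The shorter motif matched at -206 in Ms4a6b and at -133 in Ms4a6c, in both cases as the same 9 letters, and at -71 on the opposite strand in Ms4a7. A second annotated start of Ms4a7, whose window is not printed, held a match at -148. The NF-kB motif, GGGA and CC with 4 bases of any kind between them, is in 20.7% of all windows and matched once, at -189 in Ms4a6c on the opposite strand. No motif searched was found in the windows of Ms4a4c and Ms4a4b, and such matches describe letters only.

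The deposited intensities, linear values in arbitrary units, had medians of 162 to 167 on the 16 arrays. Of 13 dendritic cell markers 12 were measured, and all but Xcr1, which marks a subset of conventional dendritic cells, lay above the array median on at least 1 array. In limma 0 of the 12 were called higher, and 0, 1 and 2 lower at 4, 10 and 18 h. These were Itgax at 10 and 18 h (-0.61 and -0.81 log2 units) and Cd74 at 18 h (-0.23). Of all genes 5.27%, 8.21% and 7.4% were called higher and 13.1%, 16.5% and 16.3% lower at these times. Macrophage markers were measured for 11 of 12 genes and neutrophil markers for 9 of 10, and none of either list stayed below the array median throughout. The mean log2 intensity of the macrophage list overlapped between groups at each time, and at 18 h was 10.4 to 11.3 in NCFM cells and 10.8 to 11.3 in control cells, but its genes moved in different ways. In limma 1, 3 and 2 of the 11 were called higher at 4, 10 and 18 h and 0 lower, among them the Fc receptor Fcgr1 (1.06, 1.57 and 1.40 log2 units) and at 10 and 18 h the scavenger receptor Marco (2.20 and 2.06). The complement genes C1qa, C1qb and C1qc had -1.84, -1.37 and -1.42 at 18 h, which were called with the array number as a block but not without it. Of 6 monocyte markers 2, 1 and 2 were called higher, with Fcgr4 at 2.68 and 2.49 at 10 and 18 h, and 1 lower at each time, Ccr2 (-1.41, -3.03 and -3.75). Beside these counts too stand the shares of all genes, 5.27%, 8.21% and 7.4% higher and 13.1%, 16.5% and 16.3% lower. With lists of 11 and 6 genes the counts set no direction for either list. The mean log2 intensity of the neutrophil list was 9.75 to 10.9 in NCFM cells and 10.6 to 10.9 in control cells at 4 h. It was 9.72 to 10.5 in NCFM cells and 10.97 to 11.08 in control cells at 10 h, and 8.94 to 9.89 in NCFM cells and 10.4 on both control arrays at 18 h. Of its 9 measured genes 0, 3 and 2 were called lower at 4, 10 and 18 h and 0 higher. With 13.1%, 16.5% and 16.3% of all genes called lower, these counts set no direction for the neutrophil list. The part of these cells in the Ms4a values was not tested. The arrays numbered 1 in the labels stand apart in all 6 groups: relative to the other arrays of a group the mean log2 difference of Xist, the RNA that silences an X chromosome, was -4.32, and that of the Y-linked Eif2s3y was 3.89. By these genes the number 1 arrays read as male cells and the others as female, and so as cells of other mice. Array number thus cannot be told apart from the sex or identity of the donors. Every NCFM group holds 1 array numbered 1 among 3, as does the 4 h control. The 10 and 18 h controls hold 1 among 2, so results are given for all arrays and within array numbers.

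Ms4a4c, a gene of leukocytes of the mouse, was far higher in NCFM cells than in control cells at every time. At 4 h its probe set read 1509, 2104 and 2200 on the NCFM arrays numbered 1, 2 and 3, against 246, 332 and 323 on the control arrays. At 10 h the NCFM arrays read 6758, 9954 and 11490, against 306 and 431 in control cells. At 18 h they read 6990, 11663 and 13617, against 298 and 558 in control cells. All NCFM arrays were above all control arrays, and all those of 10 and 18 h above those of 4 h, while the 10 and 18 h NCFM arrays overlapped. In the fit of 6 group means the difference was 2.68 ± 0.30 log2 units at 4 h, 4.66 ± 0.34 at 10 h and 4.67 ± 0.34 at 18 h (SE), or 6.42-fold, 25.3-fold and 25.4-fold. In such bulk samples a change in the number of cells that hold a transcript and a change of RNA per cell cannot be told apart.

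Ms4a6b, a member described in mouse T cells and macrophages, was higher in NCFM cells as well, with a wide spread among control arrays. It read 663, 876 and 1220 in NCFM cells at 4 h, against 180, 481 and 422 in control cells. By 10 h NCFM cells had 1650, 3292 and 3483, against 205 and 1097 in control cells. The 18 h NCFM arrays read 2498, 4571 and 5829, against 218 and 1394 in control cells. The groups did not overlap at any time, yet the control array numbered 2 at 10 and 18 h read several times the array numbered 1 beside it. Fitted differences were 1.43 ± 0.73 log2 units at 4 h, 2.49 ± 0.82 at 10 h and 2.88 ± 0.82 at 18 h (SE), which is 2.69-fold, 5.62-fold and 7.35-fold.

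Ms4a6c, its neighbour in the cluster, moved in much the same way. Its NCFM arrays read 1341, 2330 and 2425 at 4 h, against 430, 960 and 1202 in control cells. In NCFM cells at 10 h the values were 3526, 6998 and 8150, against 478 and 2154 in control cells. Values at 18 h were 3833, 7355 and 7519 in NCFM cells, against 541 and 1015 in control cells. Again no control array reached an NCFM array of its time, though the control array numbered 2 at 10 h lay within the range of the 4 h NCFM arrays. The fit gave 1.31 ± 0.57 log2 units at 4 h, 2.53 ± 0.64 at 10 h and 3.01 ± 0.64 at 18 h (SE), or 2.48-fold, 5.77-fold and 8.05-fold.

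Ms4a6d, the member linked to Vsig4, was higher in NCFM cells at every time, again without overlap. NCFM arrays had 2729, 4640 and 5349 at 4 h, against 1002, 1940 and 1986 on control arrays. At 10 h they had 7338, 12396 and 13237, against 1392 and 3688 on control arrays. At 18 h they had 10993, 15050 and 15669, against 1613 and 4643 on control arrays. Within control cells the array numbered 2 again read higher than that numbered 1 at each time. Differences were 1.38 ± 0.47 log2 units at 4 h, 2.23 ± 0.52 at 10 h and 2.33 ± 0.52 at 18 h (SE), or 2.60-fold, 4.70-fold and 5.02-fold.

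Ms4a7, a gene known from tissue macrophages, was the exception, since its groups overlapped at every time. It read 364, 880 and 957 in NCFM cells at 4 h, against 244, 1016 and 1094 in control cells. At 10 h NCFM cells gave 1049, 2494 and 2825, against 360 and 1493 in control cells. At 18 h NCFM cells gave 1303, 2493 and 3514, against 338 and 2697 in control cells. Here the array numbered 1 read well below its partners in each group, and control array number 2 at 18 h exceeded NCFM array number 2. The fitted differences, 0.06 ± 0.85, 1.41 ± 0.95 and 1.24 ± 0.95 log2 units at 4, 10 and 18 h (SE), were each under 2 standard errors. With the array number as a block they were 0.06 ± 0.31, 1.10 ± 0.35 and 0.93 ± 0.35. Those of 10 and 18 h then exceeded 2 standard errors.

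**Figure D1:**
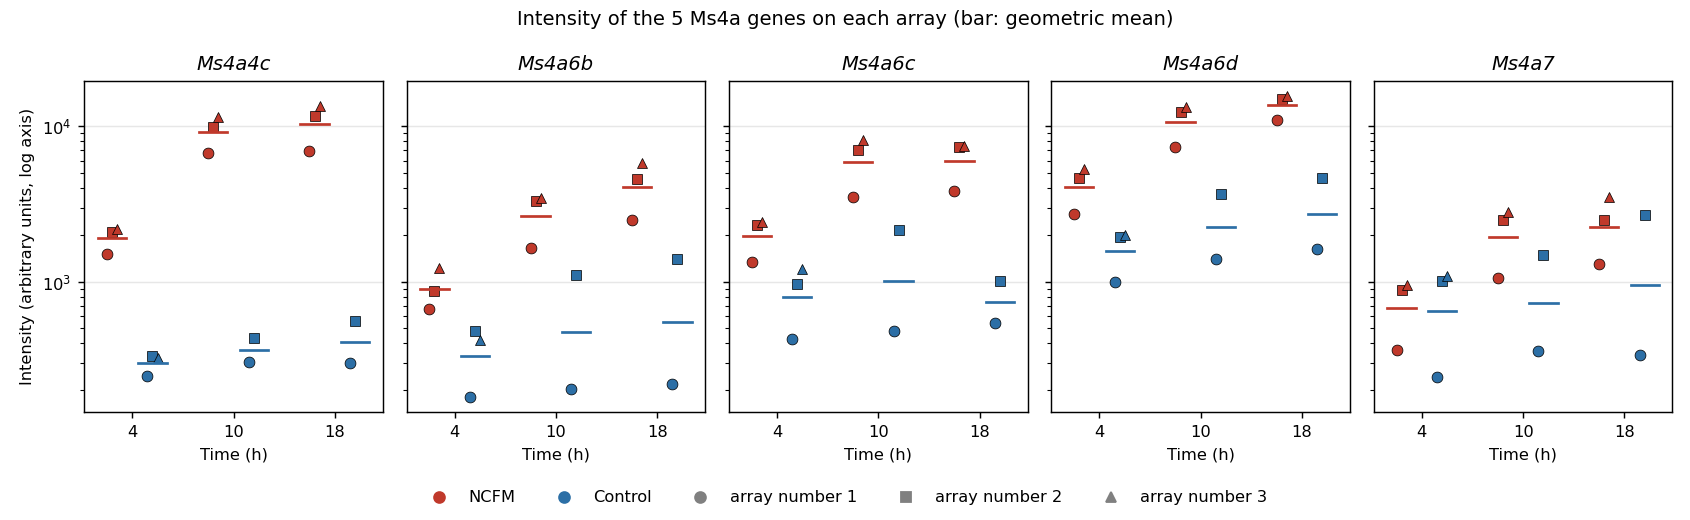
Intensity (log axis, arbitrary units) of the probe set used for each of the 5 Ms4a genes on every array at 4, 10 and 18 h, NCFM in red to the left of control in blue, with marker shape for the array number and a bar for the geometric mean. In Ms4a4c, Ms4a6b, Ms4a6c and Ms4a6d all NCFM arrays lie above the control arrays of their time, while Ms4a7 overlaps, and array number 1 (circle) is the lowest of every group.

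Every NCFM array lay above every control array at all 3 times for 4 of the 5 genes, where 13.8%, 23.2% and 21.1% of all genes did so at 4, 10 and 18 h. At an adjusted p under 0.05 in limma, 1 of the 5 was called higher at 4 h (Ms4a4c), 4 at 10 h and 4 at 18 h (all but Ms4a7), beside 5.27%, 8.21% and 7.4% of all genes called higher. Without the control array numbered 1 of the same time the count was 1 at 10 h, where 2134 of the 18193 genes were called in either direction against 4488 with all arrays, and 2 at 18 h, where 3767 were called against 4320. With the array number as a block these counts were 4, 5 and 4, beside 7.55%, 9.95% and 9.2% of all genes, and Ms4a7, the addition at 10 h, was not called with only the arrays numbered 1 and 2 and the block. As the genes were chosen from these contrasts, nothing is read from either set of counts. Ordered by level, the NCFM 10 h arrays lay wholly above the NCFM 4 h arrays in Ms4a4c, Ms4a6b, Ms4a6c and Ms4a6d. The share of all genes with such a gap was not counted, so nothing is read from it. The 18 h NCFM arrays overlapped those of 10 h, and control groups overlapped one another in all 5 genes. In Ms4a7 every pair of neighbours in the order overlapped.

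Between arrays of the same number, Ms4a4c was higher in NCFM cells in 7 of 7 pairs, by 6.13-fold to 23.5-fold, with little difference between numbers at any time. Ms4a6b was higher in 7 of 7 pairs too, but array number 1 gave 3.68-fold, 8.05-fold and 11.5-fold at 4, 10 and 18 h, and number 2 gave 1.82-fold, 3.00-fold and 3.28-fold. Ms4a6d likewise had 7 of 7 pairs higher, with 2.72-fold, 5.27-fold and 6.82-fold for number 1 and 2.39-fold, 3.36-fold and 3.24-fold for number 2. For these genes the size of the difference thus went with the array number more than it did for Ms4a4c. Ms4a6c, with 7 of 7 pairs higher, differed between numbers at 10 h (7.38-fold for number 1, 3.25-fold for number 2) and hardly at 18 h (7.09-fold and 7.25-fold). Ms4a7 was higher in 4 of 7 pairs: 1.49-fold, 2.91-fold and 3.86-fold for number 1, against log2 differences of -0.21, 0.74 and -0.11 for number 2 and -0.19 for number 3. The share of all genes higher in 7 of 7 pairs was not counted, and the 5 genes were picked with this difference known. Nothing is therefore read from the pair counts.

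**Figure D2:**
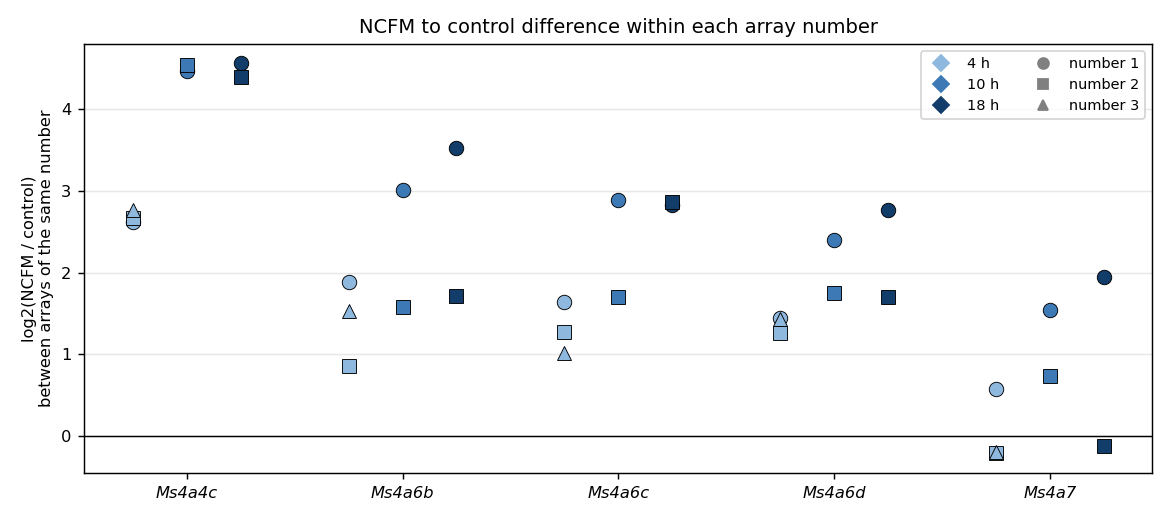
Difference of log2 intensity, NCFM minus control, between the arrays of the same number, for each Ms4a gene at 4, 10 and 18 h (left to right and light to dark), with marker shape for the array number. Ms4a4c is alike in all numbers at a time, number 1 (circle) gives the larger value for Ms4a6b and Ms4a6d, and 3 of the 7 points of Ms4a7 lie below 0.

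All 5 genes had their lowest reading on array number 1 in 6 of 6 groups, which held for 6.07% of all genes. Relative to its partners array number 1 was lower by a mean over the 6 groups of 1.56-fold in Ms4a4c, 2.88-fold in Ms4a6b, 2.32-fold in Ms4a6c, 2.01-fold in Ms4a6d and 3.57-fold in Ms4a7. In Ms4a7 the log2 gap was -1.18 to -1.34 in the NCFM groups and -2.05 or lower in the control groups, and in Ms4a6b it was -0.64 to -1.05 in the NCFM groups and -1.32 to -2.68 in the control groups. The gap was thus wider in control cells for both genes, and for Ms4a6d too, at -0.48 to -0.87 in the NCFM groups and -0.97 to -1.53 in the control groups. The mean of the macrophage markers moved the same way, lower on array number 1 in 6 of 6 groups by 0.52 to 0.88 log2 units, and monocyte markers were lower by a mean of 0.40. Dendritic cell and neutrophil markers were higher on it by means of 0.27 and 0.31. Whether these markers and the Ms4a genes share a source was not tested.

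**Figure D3:**
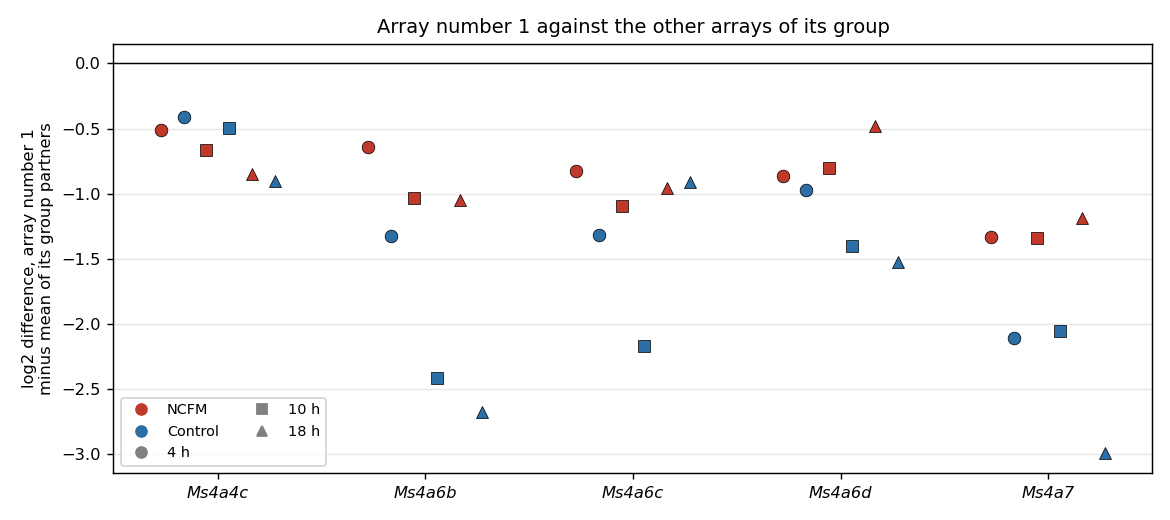
Log2 intensity of array number 1 minus the mean of the other arrays of its group, for each Ms4a gene and each of the 6 groups, NCFM in red and control in blue, with marker shape for 4, 10 and 18 h. All 30 points lie below 0, and in Ms4a6b, Ms4a6d and Ms4a7 the control points lie below the NCFM points.

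The NCFM difference itself grew with time most clearly in Ms4a4c. From 4 to 10 h it gained 1.98 ± 0.46 log2 units (SE, 95% interval 0.99 to 2.97), and from 4 to 18 h also 1.98 ± 0.46 (0.99 to 2.97), with 0.01 between 10 and 18 h. From 4 to 18 h the gain was 1.70 ± 0.86 in Ms4a6c (-0.17 to 3.56), 1.45 ± 1.09 in Ms4a6b (-0.93 to 3.84), 0.95 ± 0.70 in Ms4a6d (-0.57 to 2.47) and 1.18 ± 1.28 in Ms4a7 (-1.60 to 3.96). These 4 intervals include 0 and also the gain of Ms4a4c, and a difference between genes was not tested. The array number as a block gave smaller gains from 4 to 18 h with smaller errors. They were 1.85 ± 0.16 in Ms4a4c, 1.48 ± 0.33 in Ms4a6c and 1.24 ± 0.55 in Ms4a6b. Ms4a6d then had 0.80 ± 0.26 and Ms4a7 0.87 ± 0.47. Called at an adjusted p under 0.05 in limma were 0 of the 5 genes for 10 against 4 h, 1 for 18 against 4 h (Ms4a4c) and 0 for 18 against 10 h, where 0.506%, 3.4% and 0.0055% of all genes were called. With the array number as a block the counts were 1, 2 and 0, Ms4a6c being the addition at 18 against 4 h, beside 2.51%, 9.15% and 0.451% of all genes. With only the arrays numbered 1 and 2 and the block, Ms4a6c was not called there. The call of Ms4a4c was lost when any 1 of 9 arrays was left out, namely any NCFM array of 4 h, NCFM number 2 of 10 h, NCFM numbers 2 and 3 of 18 h, control numbers 2 and 3 of 4 h and control number 1 of 18 h. Over all 16 arrays left out in turn its gain was 1.53 to 2.44. Since these gains are built from the contrasts the genes were chosen on, they are no separate evidence.

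In control cells culture time alone changed none of the 5 genes past the threshold in limma, nor any other gene, so that 0% of all genes were called in each of the 3 contrasts. At an unadjusted p under 0.05 there were 553 genes for 10 against 4 h, 559 for 18 against 4 h and 653 for 18 against 10 h. Between 18 and 4 h the control difference was 0.80 log2 units in Ms4a6d, 0.73 in Ms4a6b, 0.56 in Ms4a7, 0.45 in Ms4a4c and -0.10 in Ms4a6c. Without the 6 arrays numbered 1, which leaves 1 control array at 10 h and 1 at 18 h, 3 of the 5 genes were called higher at 18 h: Ms4a6b by 1.63 (adjusted p = 0.042 in limma), Ms4a6d by 1.24 (0.0183) and Ms4a7 by 1.36 (0.0449), where 0.55% of all genes were called. That lone 18 h control array is assumed to vary like the arrays of the other groups. These control arrays are also the ones the NCFM arrays are set against.

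The other bright probe sets of these genes gave differences of the same sign, not always of the same size. The other probe set of Ms4a4c, 1450291_s_at, gave 3.87 ± 0.37, 5.31 ± 0.42 and 5.16 ± 0.42 log2 units at 4, 10 and 18 h (SE), above those of 1420671_x_at, which was used because it is the brighter one. The gap was widest at 4 h, so on 1450291_s_at the gain over time was smaller, 1.44 ± 0.56 from 4 to 10 h and 1.29 ± 0.56 from 4 to 18 h, and neither was called. For Ms4a6d, 1419598_at gave 1.48, 2.20 and 2.37, close to the set used, 1419599_s_at. For Ms4a6b, 1439956_at gave 1.28, 2.17 and 2.16, below 1418826_at. It read only 71 to 235 on control arrays, so this order depends on the background. With percentile 5 subtracted it gave 2.56, 4.22 and 3.72, above the 1.68, 2.78 and 3.15 of 1418826_at. The remaining sets were dim and nearly flat: 1449539_at of Ms4a6d read 48 to 59, 1445365_at of Ms4a7 80 to 139 and 1457725_at of Ms4a6c 153 to 209, with differences from -0.04 to 0.21. Probe sets that end in _s_at or _x_at can match related transcripts, so the Ms4a4c and Ms4a6d values may include RNA of paralogs.

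Most other genes of the family were not called at a given time. Of 20 further Ms4a genes and MS4A-like Tmem176 genes 14 were measured, and 2 were called higher and 0 lower at 4 h, 3 and 0 at 10 h, and 4 and 1 at 18 h. Of all genes 5.27%, 8.21% and 7.4% were called higher and 13.1%, 16.5% and 16.3% lower at these times. Their median difference was 0.08, 0.08 and 0.11 log2 units, beside -0.01, 0.01 and 0.00 for all genes. Centring the arrays on spike-in probe sets moved the median of all genes to 0.19 at 4 h and -0.24 at 10 h, more than these medians, so they set no direction for the list.

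Ms4a4b, the paralog beside Ms4a4c and a regulator of T cells in the mouse, was the largest rise in that list. It read 218 to 244 at 4 h, 247 to 326 at 10 h and 153 to 172 at 18 h on NCFM arrays, against 103 to 113, 91 to 118 and 90 to 96 on control arrays. The groups did not overlap at any time, and all control readings lay below the array median. The rise was 1.08 ± 0.11 log2 units at 4 h, 1.42 ± 0.12 at 10 h and 0.83 ± 0.12 at 18 h (SE), with adjusted p of 5.39e-05, 1.36e-05 and 0.000549 in limma. It rests on the probe set 1423467_at alone. The other set of Ms4a4b, 1425325_at, read only 78 to 97 over all arrays, at percentiles 10.4 to 19.2. Ms4a18 rose by 0.22 to 0.28 at all 3 times (adjusted p of 0.0144, 0.00572 and 0.0184), with every reading below the array median. Ms4a4d, counted above at 10 and 18 h, read 73 to 91 at 10 h and 77 to 85 at 18 h on NCFM arrays, against 57 to 64 and 54 to 62 on control arrays. All its control readings lay under percentile 5 of their arrays, so no size is given for it. Ms4a2 rose by 0.25 at 18 h (0.0173) and read no more than 134 on any array. Ms4a1, the CD20 gene, read 142 to 177 throughout and was not called.

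Tmem176b, an MS4A-like membrane protein gene of immature dendritic cells, fell at 18 h. At that time it read 3328, 2893 and 2517 in NCFM cells, against 5248 and 9264 in control cells. The difference was -1.27 ± 0.35 log2 units (adjusted p = 0.0204 in limma). Its neighbour and partner gene Tmem176a had -0.86 ± 0.40 (adjusted p = 0.146), which passed with the array number as a block (0.0116). Both had a higher median in control cells at every time, as had Ms4a7 at 4 h among the 5 Ms4a genes.

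**Figure D4:**
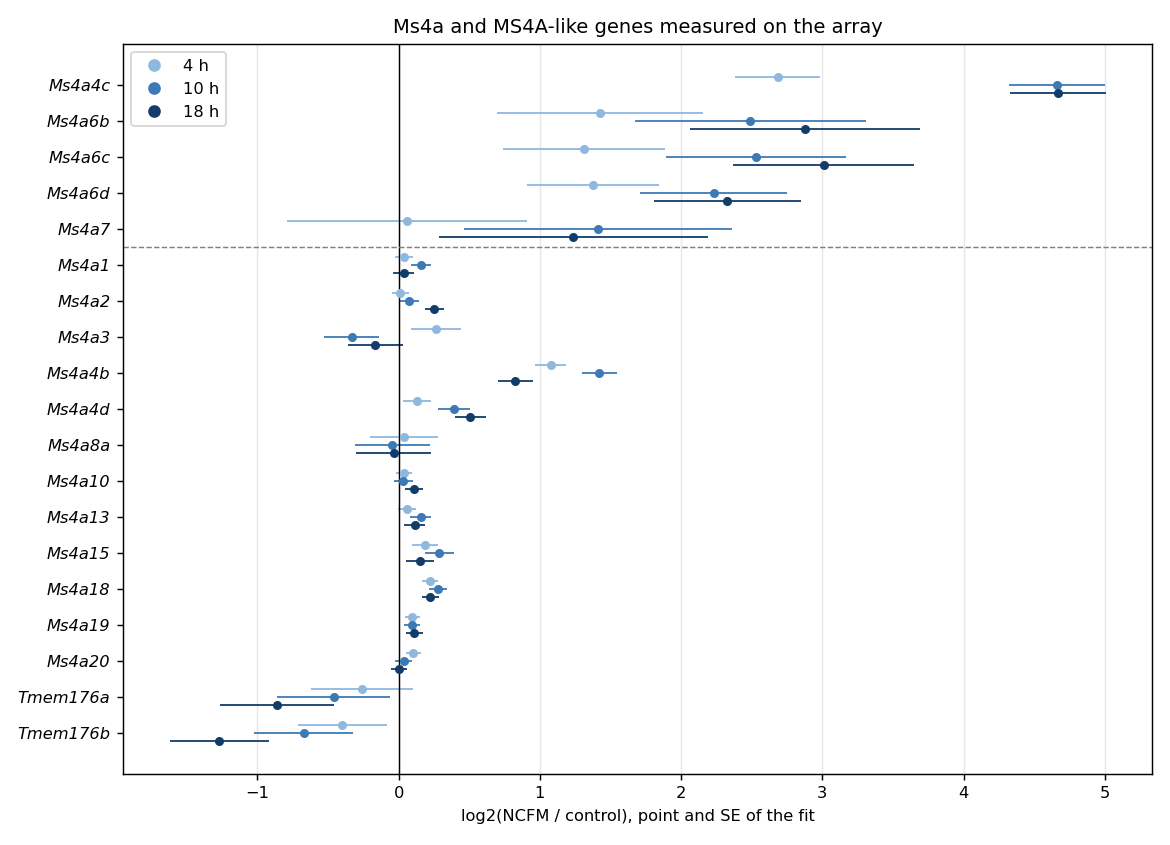
Difference of log2 intensity, NCFM over control, with its SE, for the 5 Ms4a genes (above the dashed line) and the 14 other measured family genes at 4, 10 and 18 h (light to dark). Ms4a4c reaches 4.67, Ms4a4b is the largest rise of the other genes at 1.42, and Tmem176b is the lowest at -1.27. Ms4a4d has control readings under percentile 5 of their arrays.

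Genes of proteins reported beside MS4A proteins in the membrane were all measured, 8 of 8, and 0 were called at 4 h, 1 lower at 10 h and 1 lower at 18 h. Over all genes 16.5% and 16.3% were called lower at 10 and 18 h, so the count of 1 among 8 is no more than the share of all genes. Their median difference was -0.30, -0.30 and -0.14 log2 units at the 3 times, beside -0.01, 0.01 and 0.00 for all genes. Trem2, the lipid-sensing receptor of myeloid cells whose soluble form has been tied to the MS4A locus in humans, was the gene that fell. It read 761, 1131 and 980 in NCFM cells at 10 h, against 1967 and 2924 in control cells, and 658, 1374 and 1261 in NCFM cells at 18 h, against 2376 and 3973 in control cells. The fall was -1.34 ± 0.35 log2 units at 10 h and -1.56 ± 0.35 at 18 h (adjusted p of 0.0149 and 0.00702 in limma), with no overlap of the groups. At 4 h it was -0.81 ± 0.31 (adjusted p = 0.1), and passed with the array number as a block (0.000216). These values are of 1421792_s_at, and the other probe set of Trem2, 1421226_at, read only 141 to 172 throughout. Tyrobp, the signalling adaptor of Trem2, had -0.73, -0.61 and -0.64 at the 3 times and the beta-glucan receptor Clec7a -0.60, -0.35 and -0.64, none past the threshold. Fcer1g, the gamma chain of Fc receptors, had 0.57 at 18 h (adjusted p = 0.0838), which passed with the block (0.0349). Fcer1a, at -0.15, passed with the block as well (0.0306). It read only 80 to 112, at percentiles 10.8 to 27.3 of the arrays, so nothing is read from that pass. Tnfrsf18, Vsig4 and Syk were not called at any time. Vsig4 read 141 to 170, around the array median or below it, so it was not clearly detected.

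Genes that flank the cluster did not share 1 direction. All 10 named neighbours, 5 on either side, were measured. Called higher were 1, 1 and 2 of them at 4, 10 and 18 h, and called lower 1, 3 and 3. Of all genes 5.27%, 8.21% and 7.4% were called higher and 13.1%, 16.5% and 16.3% lower. The medians of the neighbours were -0.01, 0.00 and 0.03 log2 units, beside -0.01, 0.01 and 0.00 for all genes. With 10 genes, counts of 1 to 3 are too few to be set apart from these shares. Ccdc86, a nucleolar protein gene, rose by 1.37, 0.88 and 0.50 at the 3 times (adjusted p of 2.29e-05, 0.000782 and 0.0213 in limma). Prpf19, a splicing factor, fell by 0.86, 1.19 and 1.71 on the log2 scale (0.0243, 0.00601 and 0.000661). Tmem109 and the mitochondrial ribosomal gene Mrpl16 fell at 10 and 18 h, and Ptgdr2, a prostaglandin receptor, rose by 0.18 at 18 h.

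The genes whose pattern over the 16 arrays was nearest, by the root mean square difference of log2 values after centring each gene, were named for each Ms4a gene. Nearest to Ms4a4c were Isg20, an RNA exonuclease, at 0.33 log2 units, Ifi213 at 0.41 and Irf7, an interferon regulatory factor, at 0.49, where the median over all genes was 2.19. Ms4a6b was nearest to Ms4a6d (0.37), the Fc receptor Fcgr4 (0.40) and Ms4a6c (0.46), with a median of 1.56. For Ms4a6c they were Il18bp, the secreted inhibitor of interleukin 18 (0.36), Ms4a6d (0.38) and complement factor Cfb (0.45), with a median of 1.41. Il18bp was also nearest to Ms4a6d (0.35), before Tlr1 (0.36) and Ms4a6b (0.37), with a median of 1.28. Ms4a7 had Ly6i (0.44), the glycolytic regulator Pfkfb3 (0.46) and the protease inhibitor Slpi (0.49), with a median of 1.18. Among themselves Ms4a6b, Ms4a6c and Ms4a6d were 0.37 to 0.46 apart, Ms4a4c was 1.00 to 1.07 from them and 1.68 from Ms4a7, and Ms4a7 was 0.70 to 0.83 from the 3 Ms4a6 genes. All these patterns share the same arrays, the NCFM difference and the offset of array number 1.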

How the data were processed

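Total RNA of 16 bone-marrow dendritic cell samples was labelled with biotin and read on single-channel arrays, per the labels. The authors deposited 1 table of intensity values, linear whole numbers from 42 to 31573. The summarization, background correction and normalization behind it are not given in the sources used here, nor is a genome build. Of 45101 probe sets, 34945 name 1 gene, 932 name several and were left out, 9160 are unlisted and 64 are controls. The probe set with the highest mean log2 intensity stood for each of 18193 genes (9010 have several), and the other probe sets of the 5 Ms4a genes were fitted beside them.

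Log2 intensities of all 16 arrays were fitted with limma 3.58.1 in R 4.3.3 (lmFit and eBayes, a mean per group, 10 residual degrees of freedom). Two-sided p-values were adjusted by the Benjamini-Hochberg method over the 18193 genes, with calls at an adjusted p under 0.05. On simulated data with 200 changed genes in 5 runs, 84.4% of changes of 1 log2 unit were recovered at 18 h with 6.19% false calls, and 73.4% in the 18 against 4 h difference with 6.1% false calls. In the data 4320 genes were called at 18 h, and the SE of the 5 Ms4a genes there was 0.34 to 0.95. The simulated rates thus do not carry over to these 5 genes, and an uncalled difference in them is not read as absent. The number of arrays limits the precision. Patterns, markers and promoters were handled in Python 3.11.15, with Biopython 1.88 for alignment and matplotlib 3.10.9 for plots. Promoter sequences are RefSeq's for GRCm38.p6.

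The 5 genes, the gene lists and the tests were chosen with earlier results of these data known. Named were the 5 genes, called members of the 20 family genes, the 8 partner genes, the 10 neighbours, and the 3 genes nearest in pattern. Besides the markers given with the results, those of mast cells and basophils, B cells, T and NK cells, and stromal and erythroid cells had mean log2 intensities from 7.00 to 7.79, and monocyte markers (6 of 9 measured) from 9.20 to 9.96.

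Array numbers were taken to pair the samples, since over all genes the deviations from group means had a correlation of 0.19 to 0.75 (median 0.42) in each of 36 pairs that share a number, and of -0.75 to 0.73 in the 70 pairs that do not. Alternatives were the number as a block, quantile normalization, median or spike-in centring, subtraction of percentile 5, a pseudocount of 16, mean values over probe sets, dim genes left out, array weights, trend and robust variance, the compared groups alone, a threshold of 0.01, no arrays numbered 1, and each array left out in turn. Only arrays 1 and 2 with the block was added after seeing the data. A planned alignment of the proteins was not run.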

Additional observations from a re-analysis of the deposited data

Results flagged for a closer look

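The NCFM difference of Ms4a4c at 18 h exceeded that at 4 h by 1.98 ± 0.46 log2 units (SE), and it is listed here as a difference between times. It was 4.67 at 18 h and 2.68 at 4 h. The genes were chosen with these contrasts known, so the value is a description. Its call in the fit of all arrays was lost under 13 alternatives and kept under 17, and the gene's other bright probe set gave 1.29 ± 0.56, which was not called.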

How the results depend on the processing

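No called difference of the 5 Ms4a genes changed its direction under the alternatives run, and the directions of other named genes were not followed through them. Of the 5 Ms4a genes, 1 was called at 4 h. The count was 4 with the replicate block and without the arrays numbered 1, 3 with array weights and with only arrays 1 and 2 and the block (added later), and 2 with spike-in centring, dim genes left out, the mean of probe sets, or trend and robust variance. Leaving out 1 array gave 1 to 2. At 10 h 4 were called, 2 at an adjusted p under 0.01 and with only the groups compared, 5 with the block (4 with only arrays 1 and 2 and the block, which lost Ms4a7), and 1 to 4 with 1 array left out (1 without control 10 h replicate 1). At 18 h 4 were called, also with the block, and 2 to 4 with 1 array left out (2 without control 18 h replicate 1). For the 10 against 4 h gain 0 were called, but 1 with array weights, spike-in centring, the block, only arrays 1 and 2 with the block, or without the arrays numbered 1. Spike-in centring called 9545 of the 18193 genes in this gain, against 92 with the deposited scaling, so its count says nothing of the 5. For the 18 against 4 h gain 1 was called: 2 with the block and without the arrays numbered 1, and 0 with percentile 5 subtracted, at 0.01, with the mean of probe sets, with only the groups compared, and 0 to 1 with 1 array left out. The arrays that ended it were NCFM replicates 1, 2 and 3 of 4 h, 2 of 10 h, 2 and 3 of 18 h, and control replicates 2 and 3 of 4 h and 1 of 18 h. For control cells at 18 against 4 h the count was 0, and 3 without the arrays numbered 1.

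Of the other family genes 2 were called at 4 h: 1 at 0.01, 4 with array weights and without the arrays numbered 1, 5 with spike-in centring, 0 with dim genes left out, and 1 to 2 with 1 array left out (1 without control 4 h replicate 2 or 3). At 10 h 3 were called: 0 with dim genes left out, 1 with only the groups compared, 5 without the arrays numbered 1, and 1 to 4 with 1 array left out (1 without control 10 h replicate 1). At 18 h 5 were called: 2 at 0.01, 3 with spike-in centring and with only the groups compared, 1 with dim genes left out, and 1 to 5 with 1 array left out (1 without control 18 h replicate 2, 2 without NCFM 18 h replicate 2). Leaving dim genes out removes most of this list from the fit, Ms4a4b included.

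Single control arrays move the values of the genes that differ between array numbers. Without control 10 h replicate 1 or 2, the 10 h difference was 1.28 or 3.70 log2 units in Ms4a6b, 1.44 or 3.62 in Ms4a6c and 1.53 or 2.93 in Ms4a6d. Without control 18 h replicate 1 or 2, the 18 h difference was 1.54 or 4.22 in Ms4a6b, 1.57 or 3.09 in Ms4a6d and -0.26 or 2.74 in Ms4a7. Without the arrays numbered 1 the 18 h difference was 4.50 in Ms4a4c, 1.89 in Ms4a6b, 2.87 in Ms4a6c, 1.73 in Ms4a6d and 0.13 in Ms4a7. Readings around or below the array median limit Ms4a4b, Ms4a18 and Ms4a2, and Ms4a4d read near the lowest values of the arrays. The cause of these changes was not tested.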
